A study of Homo sapiens with 2 samples.

Results

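The sites described here are the intermediate contacts of SNRPA1 in the list made with the peak caller CLIPper, those with 20 to 99 reads. They were chosen by their read numbers, and the reads come from the same data as every other measure here. SNRPA1 was profiled by irCLIP (RNA crosslinked to a protein is pulled down with an antibody to it, reverse transcribed and sequenced) in 2 biological replicates of MDA-231-LM2 cells, which descend from the breast cancer line MDA-MB-231 and were selected for colonising the lung. The labels name no treatment or engineered allele, the antibody recognises the endogenous protein, and no input or mock library was analysed here. Both replicates belong to 1 group and are not separated in the lists, so values below carry no spread between replicates and are a description. The depth of the libraries is unknown. Of 7651 distinct CLIPper intervals, 404 had 20 to 99 reads. Leaving out 22 that lay within 250 nt of an interval of 100 or more reads on the same strand left 382 intermediate intervals. The remaining intervals were 7011 with fewer than 20 reads and 236 with 100 or more.

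SNRPA1 is a leucine-rich repeat protein of the U2 small nuclear ribonucleoprotein, where it sits with SNRPB2 on a stem loop of U2 snRNA. The U2 particle recognises the branch site of introns and hands it to the active spliceosome. Contacts of such a protein can therefore lie on the snRNA, on transcripts of its gene copies, or on pre-mRNA near branch sites. Which of these an interval touches was not analysed here, because no hg19 sequence or exon annotation was used. Site sequences are not shown for the same reason. Positions are hg19, counted from 1.

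The median was 29 reads (quartiles 23 and 42), the highest value was 97 and 28 intervals had exactly 20. Just outside the lower bound lay 29 intervals of 19 reads, of which 31.0% overlapped a peak of the second deposited list, against 17.9% of those with 20. Just outside the upper bound lay 1 interval of 100 reads.

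Isolated intermediate intervals varied little in width, and intervals that touched another were shorter. An interval was called isolated when no other CLIPper interval of any read number lay within 250 nt on its strand. This held for 201 of the 382 (52.6%, 95% exact Clopper-Pearson interval 47.5 to 57.7), against 70.0% of all CLIPper intervals. Isolated intervals had a narrow spread of widths, with a median of 40 nt (quartiles 38 and 41, range 29 to 63), and 92.0% of them measured 35 to 45 nt. The 181 clustered intervals had a median of 20 nt (quartiles 16 and 34), and 12.7% of them fell in that window. All confidence intervals on shares below are of the same kind, cover counting error only, and take sites as independent, which pieces of one footprint are not.

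Nearly all clustering came from intervals that touched or overlapped, not from separate neighbours. Of the 181, 85 touched an interval with the same number of reads, at a median width of 18 nt. Another 46 touched an interval with a different number, at a median of 21.5 nt. The 38 that overlapped an interval assigned to another gene had a median of 36.5 nt and reached 103 nt, and the remaining 12, whose neighbour did not touch them, had a median of 40 nt. When all CLIPper intervals that overlapped or touched were joined into footprints, the 382 became 295 footprints, a step added after the values had been seen. Their median width was 40 nt (quartiles 37 and 42), equal to that of the isolated intervals, and 81.7% measured 35 to 45 nt. Of the footprints, 265 (89.8%, 85.8 to 93) had no neighbour within 250 nt, and the share over all CLIPper footprints was not computed. One interval made up 213 footprints, 2 intervals made up 68, and the other 14 had 3 to 6. In 43 of the 82 footprints of several intervals, all pieces had the same read number.

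**Figure D1:**
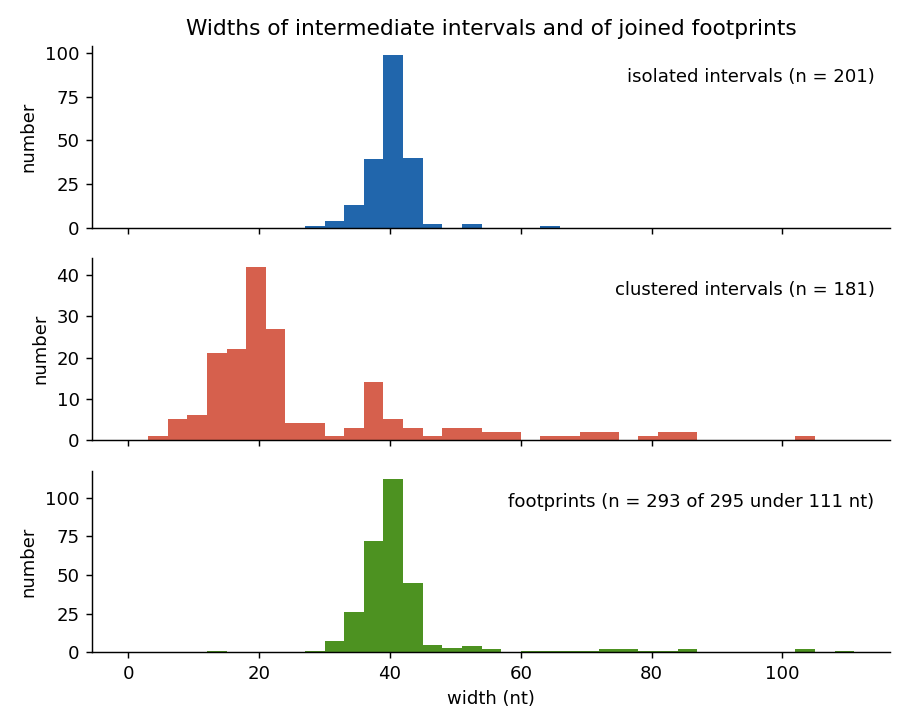
Widths in nt of isolated intermediate intervals (top), clustered ones (middle) and footprints joined from touching or overlapping intervals (bottom, without 2 footprints wider than the axis). The y axes count intervals or footprints. The isolated intervals peak at 40 nt and the clustered ones at about 20 nt, and joining brings the peak back to 40 nt.

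Counted over intervals, the isolated share was lower at higher read numbers inside the intermediate range. Touching pieces of one footprint count as clustered here, and the isolated share of footprints was not computed by read band. Over footprints of all intermediate bands together it was 89.8%. The interval share was 65.1% (57.9 to 71.8) for the 192 intervals of 20 to 29 reads, 51.3% (41.9 to 60.5) for the 119 of 30 to 49 and 21.1% (12.3 to 32.4) for the 71 of 50 to 99. Widths followed, with a median of 38 nt at 30 to 49 reads and 21 nt at 50 to 99. At 100 or more reads 3.81% of intervals were isolated and the median width was 14 nt, whereas footprints whose strongest interval had 100 or more reads had a median width of 38.5 nt.

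The second list, called the height list here for the tag heights it holds, was pooled per its name. It was deposited for the same samples, so overlap with it is no replication. Of the 382 intermediate intervals, 173 (45.3%, 40.2 to 50.4) shared 1 nt or more with a height-list peak on their strand, against 20.8% of all CLIPper intervals. The share was 42.8% (35.8 to 49.9) among isolated and 48.1% (40.6 to 55.6) among clustered intervals, with confidence intervals that overlap. Over footprints it was 45.4% (39.6 to 51.3).

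Above 10 reads the share with a height-list peak lay within a narrow range until 100 reads. Over all CLIPper intervals it was 7.37% at 3 to 4 reads, 28.4% at 5 to 9 and 43.1% (39.5 to 46.9) at 10 to 19. Within the intermediate intervals it was 41.1% (34.1 to 48.5) at 20 to 29 reads, 48.7% (39.5 to 58.1) at 30 to 49 and 50.7% (38.6 to 62.8) at 50 to 99. At 100 or more reads it was 32.2% (26.3 to 38.6). Counted as footprints, the shares of the 3 intermediate bands were 42.9%, 47.8% and 50%, and 34.6% (24.2 to 46.2) for footprints that reach 100 reads.

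**Figure D2:**
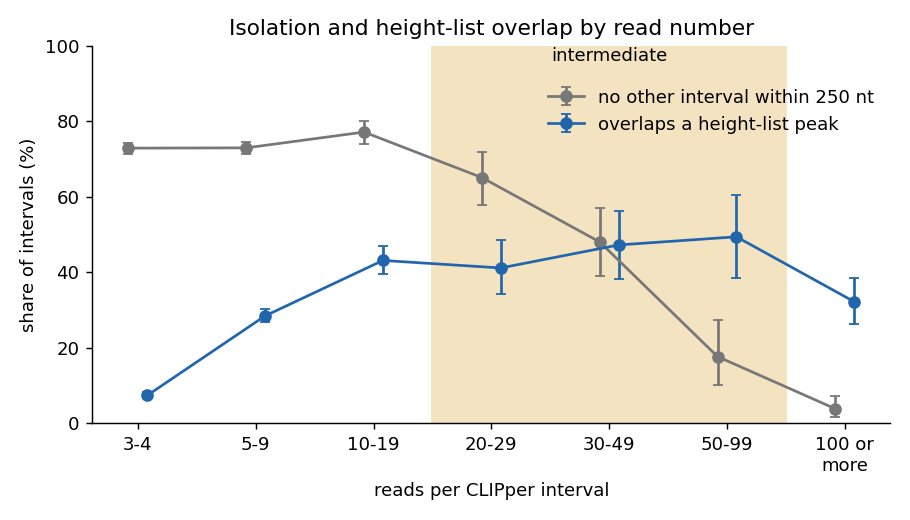
Share of CLIPper intervals in percent (y axis) by reads per interval (x axis), with 95% Clopper-Pearson intervals as bars. Grey points are intervals with no other within 250 nt and blue points those that overlap a height-list peak, over all intervals of each band, the 22 left out near strong sites included. In the shaded intermediate bands isolation, counted over intervals and not footprints, falls from 65.1% to 17.6%. The overlap stays between 41.1% and 49.4%.

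Seen from the height list, the peaks that lay on an intermediate interval were mostly above its median height. The sites were chosen by reads from the same samples. Intermediate intervals lay on 134 of the list's 1373 peaks (9.76%). These 134 had a median height of 12 tags (quartiles 8 and 17.75, range 3 to 63), against 4 tags over the whole list. Of the 88 peaks of 10 to 19 tags, 65.9% lay on an intermediate interval. Of the 35 peaks of 20 to 49 tags 71.4% did, and of the 17 peaks of 50 or more tags 17.6%. Of the 412 peaks of 5 to 9 tags 9.71% did, and of the 821 peaks of 3 to 4 tags 0.974%.

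The deposited p-values split the intermediate intervals into 2 sets that do not overlap when p is set against reads. Dividing -log10 p by the number of reads gave 0.960 to 1.58 in 306 intervals and 0.170 to 0.708 in the other 76, with none between. These are called the high and the low class below, and the dividing value of 0.8 was chosen after the values were seen. The median read number was 30.5 in the high and 27 in the low class. Median p was 2.74e-35 in the high and 2.27e-09 in the low class. The classes shared no Ensembl gene identifier, with 239 in the high and 64 in the low class. For 45 of the 64 identifiers of the low class the interval was the only one in the CLIPper list, and for 98 of the 239 in the high class.

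Few intervals of the low class had a height-list peak. In the high class 165 of 306 intervals had a height-list peak (53.9%, 48.2 to 59.6), and in the low class 8 of 76 (10.5%, 4.66 to 19.7). All 8 overlapped an interval of another gene. Of the 57 low-class intervals that did not overlap another gene's interval, 0 had a height-list peak, with an upper Clopper-Pearson bound of 6.27%. Within the high class the share was 50.3% (42.6 to 58.0) for isolated and 58.5% (49.7 to 66.9) for clustered intervals. The lengths and types of the genes behind these identifiers were not analysed here, since the gene table used pairs no Ensembl identifiers with symbols. Their part in the split was therefore not tested.

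**Figure D3:**
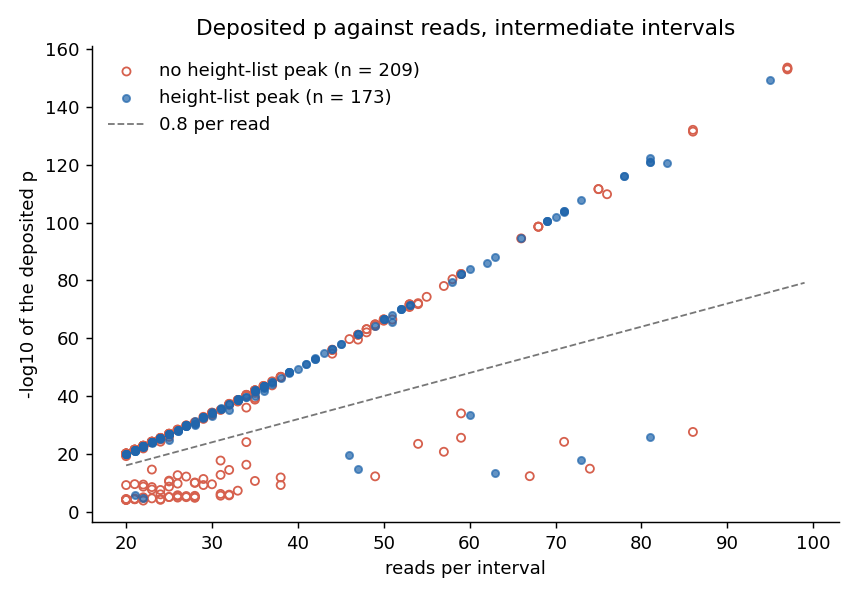
Reads per intermediate interval (x axis) against -log10 of the deposited p (y axis). Filled blue points overlap a height-list peak (173), open red points do not (209), and the dashed line marks 0.8 per read. The 306 points above the line form a narrow band and the 76 below it are mostly open.

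The low class held some of the intervals with the most reads. The isolated interval under ENSG00000222355.1 had 86 reads and a p of 2.68e-28 (chromosome 7, 53843902 to 53843939, plus strand). For comparison, the isolated interval at TSHR, which encodes the thyrotropin receptor, had 95 reads and a p of 3.13e-150. A low-class interval under ENSG00000222729.1 had 74 reads and a p of 1.40e-15. Neither low-class interval had a height-list peak. Both identifiers were chosen after their values were seen, for their reads.

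In 14 footprints intervals of both classes met, under different gene identifiers. At most 1 pair was taken per footprint, the overlapping intervals of another gene with the lowest and the highest p, if these 2 overlapped each other. This gave 13 pairs of a high-class and a low-class interval, of which 6 had equal reads. The 3 with the most reads are described. EGFEM1P gave no pair by this rule, although a high-class and a low-class interval of 60 reads each overlap there. At RHOBTB1 an interval of 38 nt under ENSG00000072422.12 and one of 36 nt under ENSG00000223107.1 both had 81 reads. Their p-values were 5.32e-123 and 1.32e-26. At DHX32, a DEAH-box helicase gene, the 2 intervals had 63 reads each and p-values of 7.35e-89 and 4.48e-14. At TENM3, which encodes the cell adhesion protein teneurin-3, they had 73 reads each and p-values of 1.87e-108 and 1.00e-18. The intervals measured 38 and 34 nt at TENM3 and 49 and 36 nt at DHX32. In other pairs reads and widths differed, as under ENSG00000242808.2 and ENSG00000206932.1, with 32 and 23 reads and 103 and 33 nt.

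**Figure D4:**
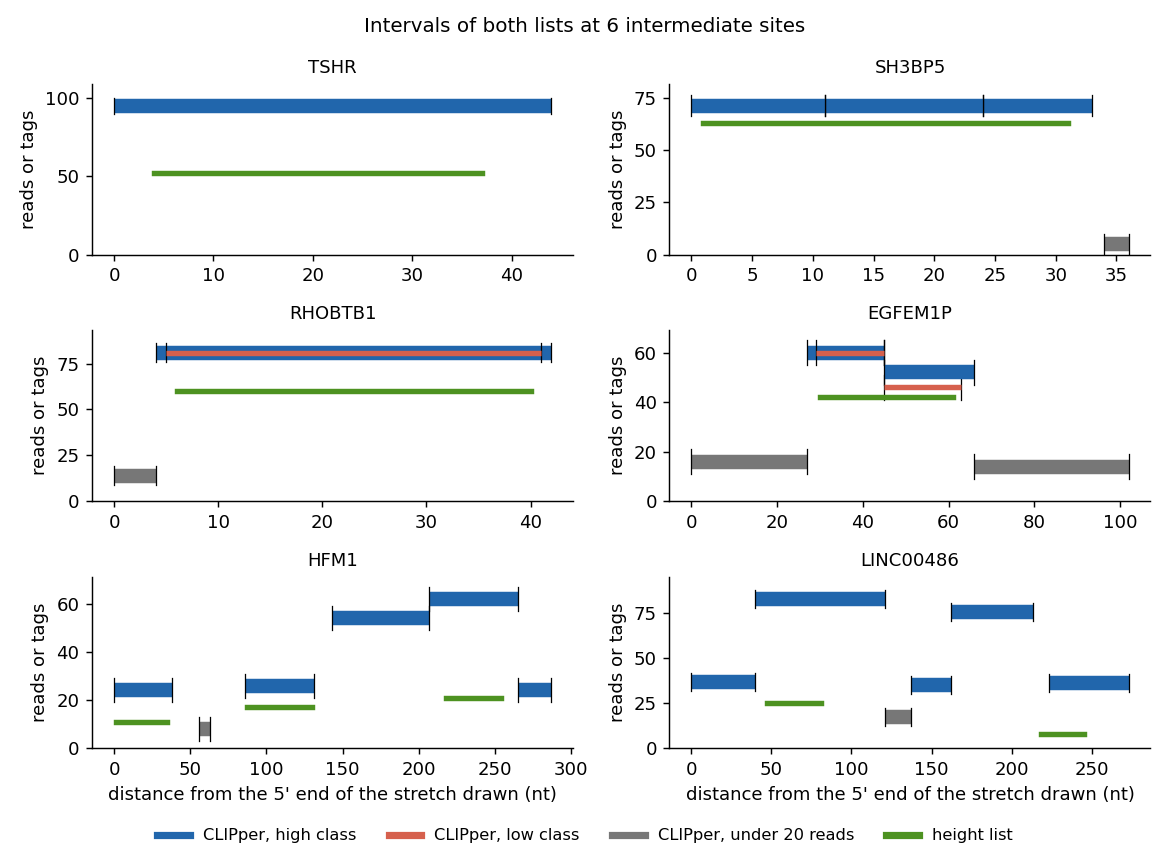
Intervals of both lists at 6 intermediate sites, by distance in nt along the transcript strand (x axis) and by their reads or tags (y axis). Broad blue bars are high-class CLIPper intervals, thin red bars low-class ones, grey bars CLIPper intervals under 20 reads, green bars height-list peaks, and black ticks mark interval ends. TSHR is 1 interval, SH3BP5 is cut into 3 pieces of 71 reads, RHOBTB1 and EGFEM1P are reported in both classes, and HFM1 and LINC00486 are runs of several intervals.

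Genes could be named for 168 of the 173 intervals with a height-list peak, through the 1 Entrez gene assigned to that peak. These gave 119 gene names. A name need not be the only gene of its site: CLIPper listed the HAUS7 and PET117 sites, among others, under more than 1 Ensembl identifier. The tallest peak on an intermediate site was in SH3BP5, which encodes an exchange factor for RAB11, at 63 tags (95% Poisson interval 48.4 to 80.6) and 71 reads. CLIPper cut it into 3 pieces of 9, 13 and 11 nt between positions 15350846 and 15350878 of chromosome 3, minus strand. RHOBTB1 followed at 60 tags (45.8 to 77.2) and 81 reads (chromosome 10, 62672636 to 62672673, minus strand). TSHR had 52 tags (38.8 to 68.2) and 95 reads (chromosome 14, 81469125 to 81469168, plus strand). TENM3 had 49 tags (36.3 to 64.8; chromosome 4, 183469823 to 183469860, plus strand). HAUS7, which encodes a subunit of the augmin complex of the mitotic spindle, had 47 tags (34.5 to 62.5) and 78 reads, in 2 touching pieces on chromosome X (152716637 to 152716675, minus strand). The Poisson intervals of these 5 overlap, so their order is not resolved.

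Of the 119 named genes, 5 have a U2 snRNA gene copy within their bounds in the RefSeq table of assembly GRCh38.p14 (4.20%, 1.38 to 9.53). This share was 46.2% (26.6 to 66.6) of 26 genes named at intervals of 100 or more reads and 0.593% (0.218 to 1.29) of 1012 genes named only at weaker ones. The 5 genes were RHOBTB1 (RNU2-72P), TENM3 (RNU2-34P), DHX32 (RNU2-42P), the pseudogene EGFEM1P (RNU2-20P) and PTER (RNU2-18P). Each had 1 footprint, and each footprint held a low-class interval under a second identifier. The same held for 1 footprint each of CCND3 and ANKRD30BL, named genes without a U2 copy, and for footprints with no named gene. Heights at the 5 genes were 60, 49, 43, 42 and 31 tags, all at least 20, with a median of 43. Other footprints were named by their first piece only. Of the 123 so named, in genes without a U2 copy, 21 reached 20 tags and the median was 12. The tallest footprints of LINC00486 and HFM1, at 25 and 21 tags, are missing from these 123, because their first piece had no peak. Containment ignores strand, and whether the peaks lie on the copies was not analysed here. A longer gene has more room for a copy, and gene lengths were not compared between these gene sets. For U6 copies the shares were 10.9% (5.95 to 18), 7.69% (0.946 to 25.1) and 9.98% (8.20 to 12.0) in the same order of gene sets.

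Isolated sites in named genes ranged widely in tags for their reads. Those with the most reads after TSHR, chosen after their values were seen, were SCN9A, a voltage-gated sodium channel gene, with 70 reads and 26 tags (chromosome 2, 167079441 to 167079481, minus strand), and PET117, a cytochrome c oxidase assembly factor gene, with 58 reads and 6 tags (chromosome 20, 18121667 to 18121705, plus strand). PARN, which encodes a poly(A)-specific ribonuclease, had 51 reads and 9 tags, and C19orf18 had 51 reads and 8 tags. ITPR2, an inositol trisphosphate receptor gene, had 50 reads and 23 tags. MACF1 and GRAMD4 had 44 reads each, with 14 and 23 tags. RNGTT, the mRNA capping enzyme gene, had 43 reads and 18 tags, and TBC1D16, which encodes a RAB GTPase-activating protein, had 42 reads and 15 tags. These 10 intervals measured 38 to 44 nt.

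Of the 201 isolated intervals, 86 (42.8%) had a height-list peak, and at these the callers drew similar windows. In 85 of 86 isolated intervals with a height-list peak the peak lay wholly inside the CLIPper interval. The CLIPper interval reached a median of 4 nt further at the 5′ end and 3 nt further at the 3′ end, and the peaks had a median width of 33 nt.

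Reads and tags were loosely related. Over the 134 footprints with a height-list peak, Spearman's rank correlation was 0.486 and Pearson's r on the log10 scale was 0.563. These footprints share the same libraries, and their range of reads was cut by the choice of sites. Reads divided by tags had a median of 2.33 over the 173 intervals and 2.5 over the 134 footprints. The median was 1.60 at weaker and 2.06 at stronger intervals. The reads that form the numerator also defined these groups, so a higher ratio than at weaker intervals can be built in by the choice. The median ratio was 2.70 at isolated and 1.94 at clustered intervals, where each piece of a footprint counts separately. How duplicate reads were treated in the CLIPper list is not known here, and its part in the ratio was not tested.

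The ratio was widest apart in a few genes. CSTPP1, a centriolar satellite gene, had 59 reads and 4 tags (95% Poisson interval 1.09 to 10.2), a ratio of 14.8, in 2 touching pieces on chromosome 11 (47122715 to 47122753, plus strand). ENSG00000138293.15, whose peak is not assigned to 1 named gene and which was chosen after its values were seen, had 81 reads in each of 2 touching pieces and 8 tags (3.45 to 15.8), a ratio of 10.1. PET117 had a ratio of 9.67. IQSEC1, which encodes an exchange factor for ARF GTPases, had 26 reads and 3 tags, a ratio of 8.67. EDIL3, which encodes an integrin-binding matrix protein, had 42 reads and 5 tags, a ratio of 8.40. At the other end, UGT8, a galactosylceramide synthesis gene, had 24 reads and 20 tags, a ratio of 1.20. SH3BP5 had 1.13, and the lowest ratio was at a piece of the EGFEM1P site, with 46 reads and 42 tags. In 18 of 134 footprints (13.4%, 8.16 to 20.4) the ratio was 5 or more, and in 45 (33.6%, 25.7 to 42.2) it was under 2.

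**Figure D5:**
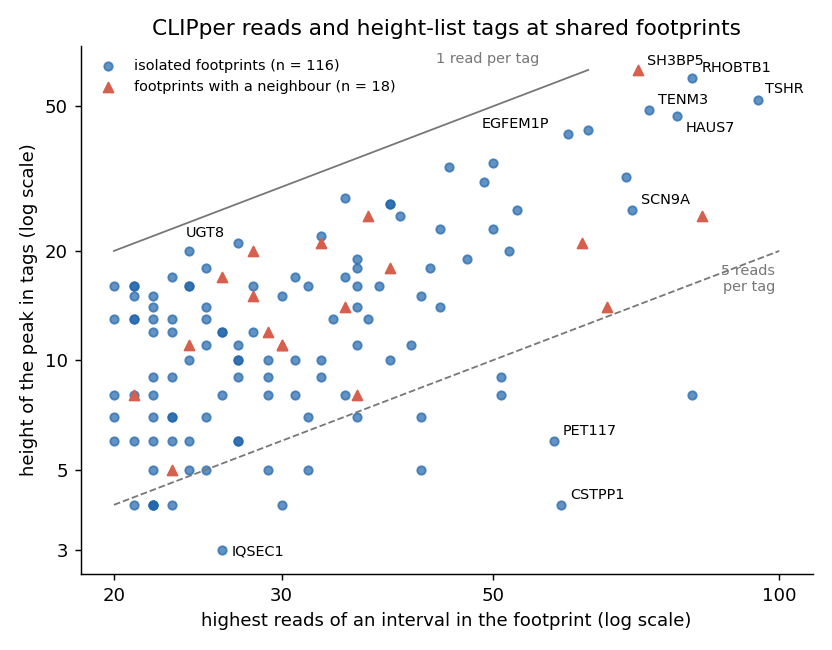
Highest reads of an intermediate interval in a footprint (x axis, log scale) against the tags of its height-list peak (y axis, log scale), 1 point per footprint (n = 134). Blue circles are footprints with no neighbour within 250 nt and red triangles those with one, and lines mark 1 and 5 reads per tag. SH3BP5 and UGT8 lie nearest to 1 read per tag, and CSTPP1, the unlabelled point at 81 reads and 8 tags (ENSG00000138293.15) and PET117 lie lowest for their reads.

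Most genes with an intermediate site had 1 such footprint. The 382 intervals carried 303 Ensembl gene identifiers of 4848 in the CLIPper list, and 11 were listed under more than 1 gene. The whole list held 7651 distinct intervals under those 4848 identifiers. Its share of genes with 1 interval was not computed, so the counts below are not set against it. Of the 303, 237 (78.2%) had 1 intermediate interval and 295 (97.4%) had 1 footprint. For 143 (47.2%, 41.5 to 53.0) it was their only CLIPper interval, and 1 also held an interval of 100 or more reads. Of the 209 intervals without a height-list peak, 20 (9.57%, 5.94 to 14.4) belonged to a gene with such a peak elsewhere.

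Only a few genes held runs of intermediate intervals. ANKRD30BL had 9 in 7 footprints on chromosome 2, minus strand, with 21 to 37 reads, and all 9 overlapped a height-list peak, of 7 to 25 tags. LINC00486, a long noncoding RNA gene, had 5 intervals with 83, 76, 37, 36 and 35 reads between positions 33091811 and 33092083 of chromosome 2, plus strand. Only those of 83 and 36 reads had a peak, of 25 and 8 tags. HFM1, which encodes a meiotic helicase, had 5 with 62, 54, 26, 24 and 24 reads (chromosome 1, 91852809 to 91853095, minus strand), of which 3 had peaks of 21, 17 and 11 tags. ENSG00000058453.12 also had 5, with 22 to 26 reads in 3 footprints of chromosome 1, and none had a peak. ENSG00000140612.9 had the intervals with the most reads, 3 touching pieces of 97 reads and 7 to 14 nt (chromosome 15, 85238986 to 85239017, minus strand), again with no peak. ZNF385D, a zinc finger gene, had 3 pieces of 69 reads at a peak of 32 tags (21.9 to 45.2). SLCO5A1, an organic anion transporter gene, and the unnamed ENSG00000260372.2 and ENSG00000204516.5 also had 3 each, with up to 39, 68 and 54 reads.

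The widest intervals were few. The widest, under ENSG00000242808.2, measured 103 nt with 32 reads, followed by 86 nt under ENSG00000035928.10 and 84 nt under ENSG00000058453.12. None of these 3 had a height-list peak. The next, under ENSG00000262202.2, measured 83 nt with 20 reads and had no peak either. LINC00486 had an interval of 81 nt, at a peak of 25 tags.

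Of 233 genes in 9 lists (U2 particle and associated proteins, hnRNP proteins, SR proteins, ribosomal proteins and translation factors, chromatin and transcription regulators, cytoskeleton and adhesion, metastasis and invasion, nuclear long noncoding RNAs, and markers of other cell types), 49 had a height-list peak and 3 of these had one on an intermediate interval (6.12%). Over all genes with a height-list peak it was 119 of 1278 (9.31%). The 3 were EIF4G3, a scaffold of translation initiation, with 45 reads in each of 2 pieces and 34 tags (95% Poisson interval 23.5 to 47.5), CUX1, a homeobox transcription factor gene, with 32 reads and 16 tags (9.15 to 26.0), and MACF1, which encodes a crosslinker of actin and microtubules. The lists of U2 proteins, hnRNP proteins and SR proteins had 0 of 4, 0 of 6 and 0 of 2, and the markers of other cell types 0 of 2. Genes without a height-list peak have no name here, so these counts miss intermediate intervals outside that list.

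The mitochondrial genome held 4 intermediate intervals (1.05%, 0.286 to 2.66), with 23 to 27 reads, against 48 of all 7651 (0.627%). None overlapped a height-list peak, and the height list has 0 peaks there. Chromosome 1 held the most, 55 (14.4%), against 9.37% of all CLIPper intervals. These 55 lay in 38 footprints, and the difference was not tested. On the minus strand lay 215 of the 382 intervals (56.3%), 165 of the 295 footprints (55.9%, 50.1 to 61.7) and 47.8% of all CLIPper intervals, a difference that was not tested.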

How the data were processed

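SNRPA1 irCLIP libraries of 2 replicates, forming 1 group, were deposited as 2 peak lists. Per the submitters' processing notes, cutadapt 1.10, BWA 0.7 and build hg19 were used. In the CLIPper list the authors deposited a p-value per interval, with an Ensembl identifier and the reads in its name. The caller is CLIPper per the file's own name. In the height list the authors deposited a signal, the peak height in tags, pooled per its name. Its caller, and the libraries behind the CLIPper list, are unknown here. Both were used to describe and filter intervals. Depth per library is unknown.

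From these, 8053 CLIPper entries were reduced to 7651 distinct intervals and the height list to 1373. Repeated intervals had equal reads in every case. Distance is the number of nt between interval ends on the same strand. Entrez identifiers were named through the RefSeq table of GRCh38.p14, whose coordinates served only to find genes within genes. Genes were named by rule: the 10 named sites with the most reads, the 10 tallest, the 10 genes with the most sites, the 5 highest and 5 lowest ratios of reads to tags, the 5 widest, and up to 4 members of each list. The members, lists and rules were chosen with earlier results of these data known. No test was run, since the reads that chose the sites also feed the other measures. Alternatives covered the windows, read bounds, p thresholds, overlap and joining. Code was tested on simulated intervals. Intervals on shares were computed with scipy 1.17.1, tables with pandas 2.3.3 and numpy 2.4.6, and figures with matplotlib 3.10.9, under Python 3.11.15.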

Additional observations from a re-analysis of the deposited data

How the results depend on the processing

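Of 68 alternative values for 8 results under 12 settings, 60 stayed within the 95% interval of the reported value or, for counts, within 1.5 times. Taking the lowest reads of a repeated interval could change nothing, since repeated intervals had equal reads. Leaving out sites within 1000 nt of a strong interval also returned the reported values exactly. The values of these settings are among the 60. With 30 to 99 reads the sites fell to 190 and their genes to 140, by construction, their median width was 36 nt and 40% were isolated. With sites joined within 250 nt the median width was 40 nt. With overlapping or touching intervals joined into footprints, a setting chosen after seeing the data, the median width was again 40 nt, the isolated share rose from 52.6% to 89.8%, and the share of clustered sites with a height-list peak was 60%, over 30 footprints. No other setting moved a value that far: the share of all intermediate sites with a height-list peak ranged from 42.9% with height-list P under 1e-05 to 49.5% with 30 to 99 reads. Depth is unknown and limits every count. No paired analysis was possible because there is 1 group, and fits without each replicate were not run, since the lists do not separate them.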
